A study of Mus musculus with 6 samples.

Results

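The Hox cluster genes of the mouse were described in fibroblasts sorted from lung tumours. They were taken as every protein-coding gene of the files whose symbol is Hoxa, Hoxb, Hoxc or Hoxd followed by a number, which gave 39 of the 55298 genes listed. The letter names the chromosomal cluster and the number is the paralog number, the gene's position within the cluster. RNA-seq had been run on 3 libraries of MHC class II-positive cancer-associated fibroblasts (apCAFs 1, 2 and 3, for antigen-presenting) and 3 libraries of MHC class II-negative ones (nonapCAFs 4, 5 and 6). Both populations came from orthotopic lung tumours of wild-type C57BL/6 mice over 8 weeks old, and the groups shared strain, genotype, tissue and age. The gate took large PDPN+ PDGFRA+ cells without CD45, CD31, EPCAM or the mCherry signal, and within that gate the groups were split by surface MHC class II. Tumours were pooled, so a library does not stand for one animal. The labels name 3 experiments without saying which libraries shared one.

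Hox genes encode transcription factors that give cells along the head-to-tail axis of the embryo their regional identity. Genes with low numbers sit at the 3′ end of a cluster and are switched on early and toward the head, while genes with high numbers sit at the 5′ end and are switched on late and toward the tail, an arrangement called collinearity. Fibroblasts of the adult body keep much of the Hox pattern of the place they came from, and the lung mesenchyme is known for genes of the 3′ and middle part of the clusters, Hoxa5 above all. Retinoic acid acting through RAR receptors turns on 3′ genes, Cdx factors act on middle genes, Polycomb complexes hold silent Hox genes closed and Trithorax complexes hold active ones open. Hox proteins bind DNA together with partners of the TALE family, Pbx, Meis and Prep (Pknox).

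The 4 clusters lie on separate chromosomes. In the files' coordinates, build mm10 (GRCm38), Hoxa2 to Hoxa13 lie on the minus strand of chromosome 6 (52162417 to 52260880). The Hoxb cluster runs from Hoxb13 to Hoxb1 on the plus strand of chromosome 11 (96194316 to 96368256). The Hoxc cluster runs from Hoxc13 to Hoxc4 on the plus strand of chromosome 15 (102921103 to 103036852), and the Hoxd cluster from Hoxd13 to Hoxd1 on the plus strand of chromosome 2 (74668310 to 74765142). All 39 genes had the coordinates they have in GENCODE M21.

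What makes these genes a family is the homeobox, the 180 bases that encode the DNA-binding homeodomain. That of Hoxc9, which passed the test between groups together with Hoxb5 and Hoxa9, is shown because homeoboxes bear on how far clustered genes can be told apart by their reads. It was read from the GENCODE M21 transcripts, 5′ to 3′. Capitals mark bases 142 to 159, which encode the invariant core of the helix that reads the DNA.
Hoxc9: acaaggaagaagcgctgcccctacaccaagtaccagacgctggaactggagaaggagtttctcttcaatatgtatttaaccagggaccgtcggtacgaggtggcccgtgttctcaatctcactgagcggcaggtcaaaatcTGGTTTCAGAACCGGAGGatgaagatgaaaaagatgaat
The homeoboxes of Hoxa9 and Hoxc9, which share a paralog number, were identical at 82.8% of bases, with a longest run of 31 matching bases at aligned positions. Hoxb5 was identical to Hoxa9 at 63.3% and to Hoxc9 at 64.4%, against 83.9% for its own paralog Hoxa5. Over the 39 homeoboxes, the 42 pairs with the same number had a median identity of 80.6% (67.2% to 93.9%), and the 172 pairs from the same cluster 61.7%. The longest exact run shared by any pair was 52 bases, between Hoxa6 and Hoxb4. How the authors assigned reads that match more than 1 gene is not given in the sources used here.

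Values are normalized counts, scaled between libraries by the authors and rounded to whole numbers, so sequencing depth is unknown and no counting interval is given. Their totals per library lay between 77960347 and 93330791. The class II gene H2-Aa read 11556, 12693 and 22115 in apCAFs and 207, 252 and 187 in nonapCAFs, which follows the labels. Of 8 fibroblast markers, 6 were called higher in apCAFs by limma (2 to 6 without single libraries, the fewest without nonapCAFs 4 or nonapCAFs 5) and 1, Lum, lower, a call lost without any single library. Col1a1 lay between 311391 and 1365163 in every library. apCAFs 1 and 2 lay close together, as did nonapCAFs 4 and 5: the SD of the log2 ratio over 17829 genes with a mean of at least 100 was 0.238 and 0.246. The remaining pairs of libraries within a group gave 0.479 to 0.708. Of 9 mesothelial markers, 7 were called higher in apCAFs (Msln, Upk3b, Upk1b, Lrrn4, Wt1, Gpm6a and Krt19), and their summed value ran from 40678 to 51808 in apCAFs and from 5300 to 5987 in nonapCAFs, with Muc16 at 0 in nonapCAFs 6. Of 10 alveolar type II markers none passed limma (2 at an unadjusted p under 0.05, 7 without apCAFs 3, and 8 in the authors' deposited table), and their sum was 107745, 90477 and 9609 in apCAFs and 9244 to 11262 in nonapCAFs. Sftpc, the main surfactant gene of these cells, read 48853, 40491 and 226 in apCAFs and 124 to 185 in nonapCAFs. The other lists gave 1 of 8 alveolar type I and general epithelial markers higher, 1 of 7 tested endothelial markers higher, 4 of 8 pericyte and smooth muscle markers higher, and among 6 tested leukocyte markers 1 higher and 1 lower. Without single libraries the higher calls numbered 4 for the alveolar type I list without apCAFs 3 (otherwise 1), 1 for the endothelial list, 2 to 4 for the pericyte list (2 without nonapCAFs 4 or nonapCAFs 5) and 0 to 2 for the leukocyte list (2 without apCAFs 3, 1 without apCAFs 2, otherwise 0), whose lower call was kept only without apCAFs 3. The part of these other cell types in the Hox values was not tested. In bulk libraries, fewer cells of a type and less RNA per cell cannot be told apart. For these marker lists, the background was 9.35% of all tested genes called higher by limma and 0.889% lower. The share higher was 9.9% without apCAFs 3, 19.7% at an unadjusted limma p under 0.05 and 20.6% in the authors' deposited table.

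All 39 Hox genes were placed by level. The mean over the 6 libraries was at least 100 for 24 of them, between 10 and 100 for 6, and under 10 for 9. Those 9 (Hoxb1, Hoxb13, Hoxc10, Hoxc11, Hoxc12, Hoxc13, Hoxd1, Hoxd12 and Hoxd13) never exceeded 26 in a library, and Hoxd1 and Hoxd13 were listed at 0 in all of them. The other 30 entered the test, a limma fit on log2(value + 1) over the 24071 genes with a mean of at least 10, with Benjamini-Hochberg adjustment over all of them and a threshold of 0.05. Hoxa9, Hoxa13 and Hoxc8 averaged under 10 in apCAFs and entered through their nonapCAFs values. Differences are given as apCAFs over nonapCAFs on the log2(value + 1) scale with limma's standard error (SE). Values are listed for apCAFs 1, 2 and 3 and then for nonapCAFs 4, 5 and 6.

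**Figure D1:**
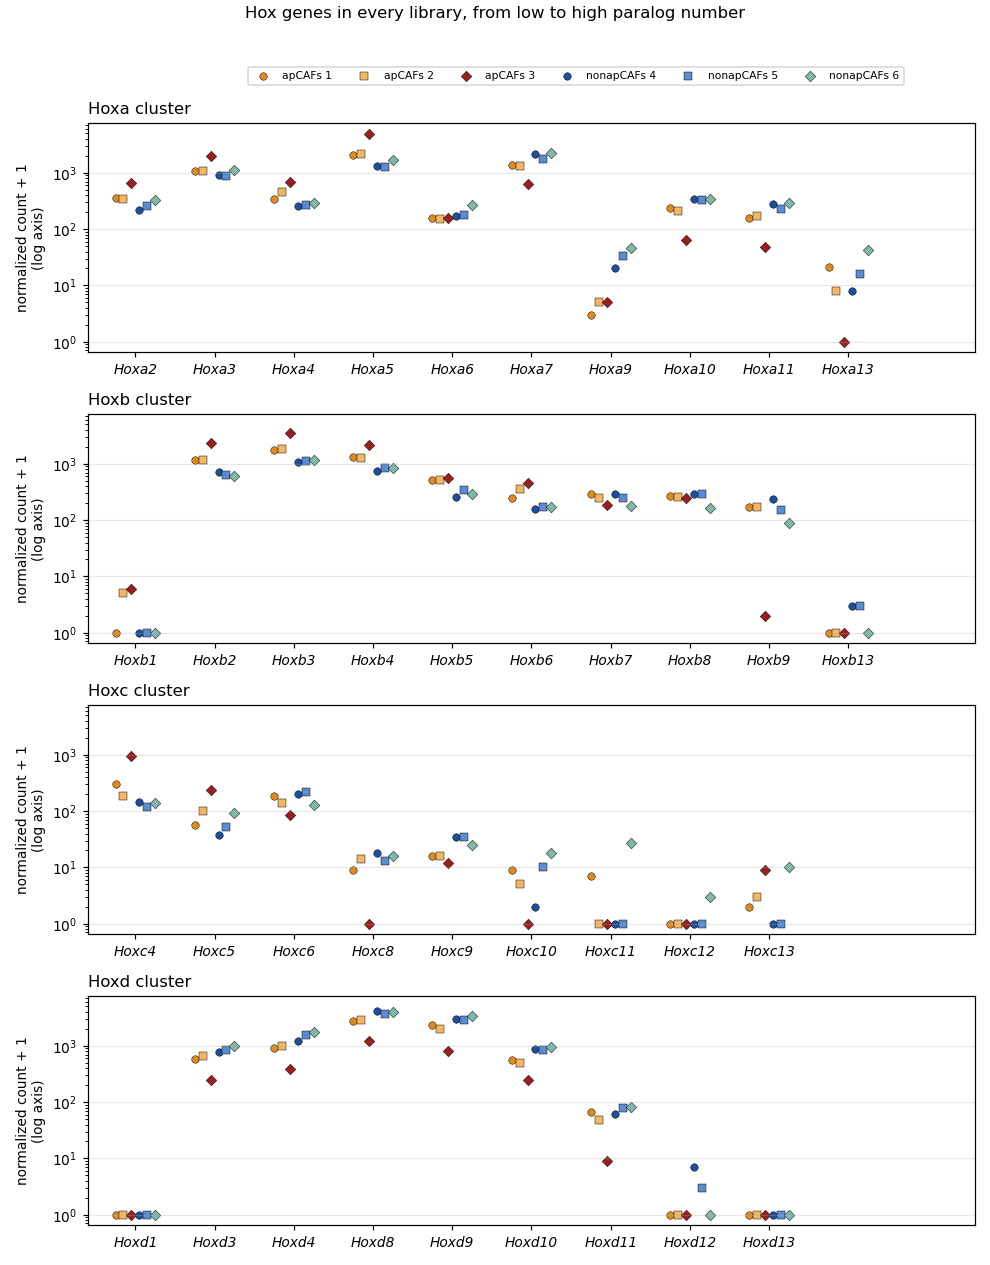
Each panel is a cluster, with 38 of the 39 genes drawn, each position on the x axis a gene from the lowest to the highest paralog number, and each point a library; the y axis is the normalized count plus 1 on a log scale. In Hoxa, Hoxb and Hoxc the apCAFs points (orange and red) sit mostly above the nonapCAFs points (blue and green) at the low-number end, and in Hoxd they sit mostly below; apCAFs 3 (red diamonds) is farthest out for many genes.

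The Hox genes differed in both directions, and few passed the test. limma called 3 of the 30 tested genes, Hoxb5 higher and Hoxa9 and Hoxc9 lower in apCAFs, against a background of 10.2% of all tested genes called in either direction, 9.35% higher and 0.889% lower. The share of 10% called in either direction is near that background, and the lower calls, 6.67% of the 30, rest on 2 faint genes. Left out one at a time, no library but apCAFs 3 could be dropped with all 3 calls kept: Hoxb5 lost its call without apCAFs 1, apCAFs 2, nonapCAFs 4, nonapCAFs 5 and nonapCAFs 6 (limma adjusted p 0.0534 to 0.0823), Hoxc9 without apCAFs 1, apCAFs 2, nonapCAFs 4 and nonapCAFs 5 (0.0723 to 0.113) and Hoxa9 without nonapCAFs 5 (0.0601). The labels name 3 experiments, and a term for the experiment was fitted under all 6 ways of pairing the libraries: Hoxb5 was called under none (limma adjusted p 0.0544 to 0.114), Hoxa9 under 3 and Hoxc9 under 2. The 3 apCAFs and 3 nonapCAFs values did not overlap for 20 of the 30, with apCAFs all above in 9 and all below in 11, against 45.7% of all tested genes (24.1% above and 21.6% below). Without apCAFs 3, limma called 9 of the 30: Hoxb2, Hoxb3, Hoxb4 and Hoxb5 higher and Hoxa9, Hoxa10, Hoxc9, Hoxd8 and Hoxd10 lower, against a background of 12.3% (9.9% higher and 2.43% lower). Only apCAFs 1 and 2 stand for the class II-positive cells in that fit. With a variance trend in limma, 7 of the 30 were called, 5 higher and 2 lower, against 15.9% of all tested genes (13.2% higher and 2.7% lower). With a term that sets apCAFs 3 and nonapCAFs 6 apart, limma called 8, 6 higher and 2 lower, against 17.7% (14.5% higher and 3.16% lower). At an unadjusted limma p under 0.05 there were 12 of 30, 7 higher and 5 lower, against 30.6% (19.7% higher and 11% lower). Averaging the close pairs left none called. In that limma fit 7 of the 30 (4 of them higher, 3 of them lower) had an unadjusted p below 0.05, as did 4116 of all 24071 tested genes.

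In the Hoxa cluster the sign of the difference turned between Hoxa5 and Hoxa6. Hoxa2, which sets the identity of the second branchial arch, read 358, 348 and 654 against 215, 260 and 325 (log2 0.72, SE 0.30, limma adjusted p = 0.179). Hoxa3, needed for the thymus and parathyroid, read 1074, 1080 and 2016 against 929, 889 and 1114 (log2 0.45, SE 0.28, limma adjusted p = 0.316). Of this pair, Hoxa2 had apCAFs all above nonapCAFs and Hoxa3 did not, and for both apCAFs 3 was the highest library. Hoxa4 read 338, 459 and 693 against 251, 272 and 289 (log2 0.81, SE 0.27, limma adjusted p = 0.122). Hoxa5, whose loss in the mouse disturbs the formation of the trachea and lung and which is expressed in lung mesenchyme, read 2091, 2184 and 4936 against 1310, 1275 and 1702 (log2 0.995, SE 0.37, limma adjusted p = 0.146). Both had apCAFs all above nonapCAFs and neither passed.

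From Hoxa6 on, the apCAFs values were the lower ones. Hoxa6 read 154, 148 and 157 against 170, 174 and 265 (log2 -0.38, SE 0.20, limma adjusted p = 0.248). Hoxa7, next to it in the cluster, read 1396, 1299 and 624 against 2114, 1787 and 2271 (log2 -0.97, SE 0.34, limma adjusted p = 0.129). apCAFs 3, the highest library for Hoxa5, was the lowest for Hoxa7. Hoxa9, a gene of blood stem cells and leukaemia (chromosome 6, 52223100 to 52231089), read 2, 4 and 4 against 19, 32 and 46, and was called lower by limma (log2 -2.90, SE 0.38, adjusted p = 0.0136). It is faint in both groups, so the size of its difference depends on the pseudocount and scaling: log2 -1.62 with a pseudocount of 10 and -3.71 with quantile normalization, called in both. Hoxa10, which acts in the uterus and hindlimb, read 233, 206 and 62 against 337, 329 and 341 (log2 -1.21, SE 0.52, limma adjusted p = 0.183). Hoxa11, which acts in the forearm and uterus, read 159, 173 and 48 against 275, 229 and 293 (log2 -1.26, SE 0.52, limma adjusted p = 0.171). Both had apCAFs all below nonapCAFs, with apCAFs 3 far under the other libraries. Hoxa13, a gene of the hand and foot plate, read 20, 7 and 0 against 7, 15 and 41, and the groups overlapped. Without apCAFs 3, Hoxa10 passed at log2 -0.61 (limma adjusted p = 0.0251).

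Exons of several of these genes are shared with antisense or read-through transcripts, and whether the authors' counting used strand is not given in the sources used here. The shared part of the exon length in GENCODE M21 was 35.0% for Hoxa11 (Hoxa11os), 25.4% for Hoxa3, 20.4% for Hoxa7 (Hoxaas3) and 16% for Hoxa4, all antisense, and 0 for Hoxa5, Hoxa6 and Hoxa10. Values of the genes with antisense partners are uncertain, and the shared part does not bound by how much. On the same strand, 15% of the exon length of Hoxa2 and 8% of that of Hoxa3 is shared with Gm28308.

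In the Hoxb cluster, every apCAFs library lay above every nonapCAFs library for each gene from Hoxb2 to Hoxb6. Hoxb2, a hindbrain gene, read 1160, 1171 and 2364 against 727, 624 and 605 (log2 1.18, SE 0.31, limma adjusted p = 0.0731). Hoxb3 read 1732, 1850 and 3541 against 1075, 1107 and 1174 (log2 1.01, SE 0.30, limma adjusted p = 0.0936). Hoxb4, known for expanding blood stem cells when forced on, read 1315, 1289 and 2186 against 734, 836 and 834 (log2 0.95, SE 0.24, limma adjusted p = 0.0639). In all 3 genes apCAFs 3 lay far above apCAFs 1 and 2. Hoxb5, a gene of the developing lung and gut mesenchyme (chromosome 11, 96303336 to 96306121), read 506, 506 and 547 against 254, 337 and 294, and was called higher by limma (log2 0.82, SE 0.14, adjusted p = 0.0240, 1.77-fold). It was the steadiest of the block, with apCAFs 3 at 1.08 times the mean of apCAFs 1 and 2. Hoxb6, a gene of the lateral plate mesoderm, read 241, 354 and 462 against 156, 172 and 169 (log2 1.04, SE 0.25, limma adjusted p = 0.0607).

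Beyond Hoxb6 the groups overlapped for each tested gene, and none of these passed. Hoxb7 read 288, 247 and 187 against 293, 241 and 178 (log2 0.03, 95% interval -0.60 to 0.66). Hoxb8, known for its part in grooming behaviour through blood-derived cells, read 267, 259 and 243 against 290, 287 and 162 (log2 0.11, 95% interval -0.53 to 0.74). The libraries of both groups were interleaved for both genes, and the sign of both turned negative under 3 other scalings of the values. Hoxb9 read 171, 167 and 1 against 234, 153 and 87, so apCAFs 3 was almost without it while apCAFs 1 and 2 lay among the nonapCAFs values. Its fitted difference of log2 -1.93 had an SE of 1.85 and turned to 0.21 without apCAFs 3. Hoxb13 was at 0 in apCAFs and at 2, 2 and 0 in nonapCAFs, and Hoxb1 was at 0, 4 and 5 in apCAFs and at 0 in nonapCAFs. Hoxb3os, an RNA antisense to 52.9% of the exon length of Hoxb3 and 27.3% of that of Hoxb2, read 2384, 2460 and 4486 against 1472, 1471 and 1442 (log2 1.02, limma adjusted p = 0.0722), so these 3 cannot be told apart without strand. Hoxb4 and Hoxb6 share no exon base with another gene, and Hoxb5 shares 3.6%.

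The Hoxc cluster was the least abundant, and its 2 lowest-numbered genes pointed up. Hoxc4 read 298, 184 and 960 against 142, 119 and 137 (log2 1.5, SE 0.61, limma adjusted p = 0.169), with apCAFs all above nonapCAFs and apCAFs 3 at 3.98 times the mean of apCAFs 1 and 2. Hoxc5 read 55, 99 and 232 against 36, 52 and 92 with overlap (log2 0.95, SE 0.61, limma adjusted p = 0.325). Hoxc6, known in thoracic vertebrae and the mammary gland, read 182, 136 and 86 against 204, 216 and 127 (log2 -0.46, SE 0.35, limma adjusted p = 0.389). Hoxc8, which marks motor neurons of the forelimb level, read 8, 13 and 0 against 17, 12 and 15. Hoxc9, which sets the thoracic identity of motor neurons (chromosome 15, 102976439 to 102985099), read 15, 15 and 11 against 34, 34 and 24, and was called lower by limma (log2 -1.11, SE 0.20, adjusted p = 0.0305, 2.15-fold). Its values are faint, but no apCAFs library reached the lowest nonapCAFs library. Hoxc10 to Hoxc13 stayed at 26 or less in every library.

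The Hoxd cluster was the only one with no tested gene above 0: all 6 lay below 0, from the lowest to the highest paralog number. The tested genes numbered 9 to 13 lay below 0 in every cluster with all libraries, so mainly Hoxd3 and Hoxd4 differed in sign from their paralogs. Hoxd3 read 582, 657 and 244 against 772, 849 and 1002 (log2 -0.94, SE 0.40, limma adjusted p = 0.184). Hoxd4, which patterns the hindbrain and neck vertebrae, read 926, 1004 and 384 against 1224, 1564 and 1746 (log2 -1.07, SE 0.41, limma adjusted p = 0.150). In GENCODE M21, 62.3% of the exon length of Hoxd3 and 52.3% of that of Hoxd4 is shared on the same strand between them and the read-through transcript Gm28230, so their values are not independent. Hoxd8 read 2709, 2907 and 1208 against 4093, 3654 and 4060 (log2 -0.89, SE 0.36, limma adjusted p = 0.166). Hoxd9, which acts with its neighbours in limb and lumbar patterning, read 2303, 2012 and 804 against 3043, 2910 and 3341 (log2 -0.996, SE 0.42, limma adjusted p = 0.177). Hoxd10, a gene of the limb and lumbar motor neurons, read 551, 495 and 250 against 881, 846 and 968 (log2 -1.13, SE 0.32, limma adjusted p = 0.0861). For these 5 genes every apCAFs library lay below every nonapCAFs library, and apCAFs 3 was below 0.5 times the mean of apCAFs 1 and 2. Hoxd11 read 66, 47 and 8 against 60, 78 and 81 with overlap. Hoxd12 was at 0 in apCAFs and at 6, 2 and 0 in nonapCAFs. None of the cluster passed with all libraries. Without apCAFs 3, Hoxd8 (log2 -0.49, limma adjusted p = 0.0471) and Hoxd10 (log2 -0.78, limma adjusted p = 0.0207) did.

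Arranged by paralog number, the differences ran from positive to negative in Hoxa, Hoxb and Hoxc. Of the 12 genes numbered 1 to 5 in these clusters, 11 were tested, and all 11 had a fitted difference above 0 (median log2 0.95, range 0.45 to 1.5). In 8 of them apCAFs were all above nonapCAFs and 1 was called higher, against 24.1% and 9.35% of all tested genes. The cut after 5 and the leaving out of Hoxd follow the signs of these same values, so 11 of 11 adds no support. By class over all 4 clusters, 5 of 6 tested genes numbered 1 to 3 lay above 0, and 9 of 15 numbered 4 to 8. Of the 16 genes numbered 9 to 13 in all 4 clusters, 9 were tested, and all 9 had a fitted difference below 0 (median log2 -1.26). In 6 of them apCAFs were all below nonapCAFs and 2 were called lower, against 21.6% and 0.889% of all tested genes. Hoxa9 and Hoxa13 are among the 9 through their nonapCAFs values, and Hoxb9 turned to 0.21 without apCAFs 3, when the median of the 9 was -0.61. The median over all 24071 tested genes was log2 -0.03, and over the 30 Hox genes -0.42. That last median depended on the genes, libraries and scaling used: it was 0.07 over the 24 genes with a mean of at least 100, -0.02 over the 30 without apCAFs 3, and -0.57, -0.79 and -0.63 with values divided by library totals, quantile normalization and median centring. Across the 30 tested genes, Spearman's rho between paralog number and difference was -0.76 and Pearson's r -0.74. Within the clusters rho was -0.79 over 11 Hoxa genes, -0.83 over 8 Hoxb genes, -0.90 over 5 Hoxc genes and -0.71 over 6 Hoxd genes. These are descriptions across genes, which share their libraries and are not independent replicates. Without apCAFs 3, rho was -0.63 over the 30 genes and 0.14 within Hoxd.

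**Figure D2:**
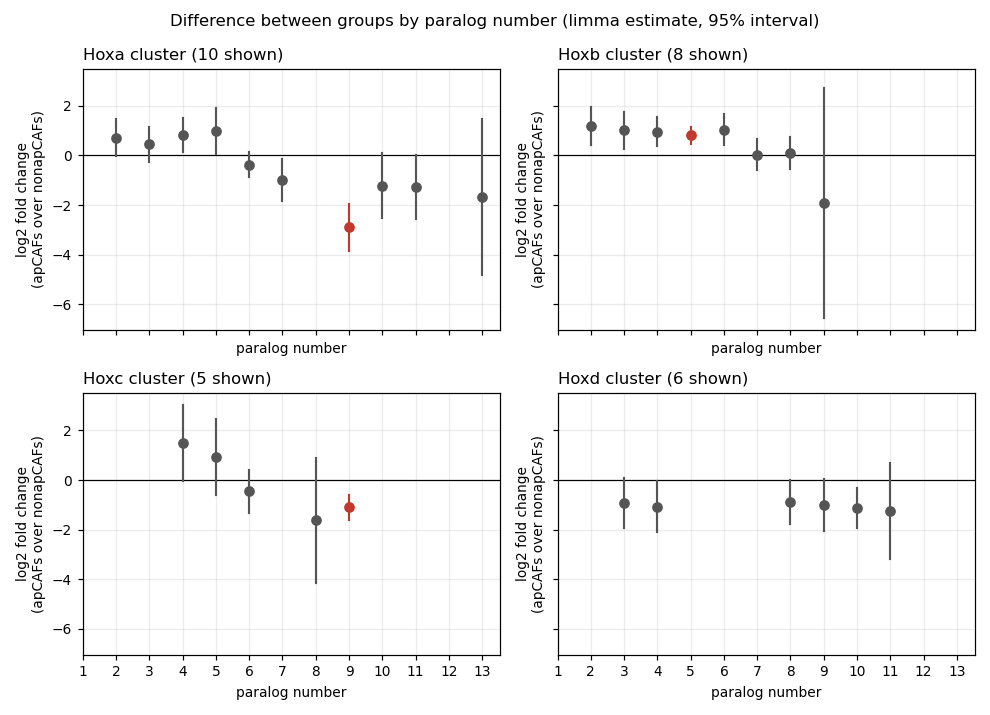
Points are the fitted log2 differences of 29 of the 30 tested genes, with 95% intervals as bars, against paralog number; red marks the genes called by limma. Hoxa, Hoxb and Hoxc start above 0 and end below it, while all 6 Hoxd genes lie below 0, between -1.26 and -0.89.

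The place of the change of sign differed among clusters. It fell between Hoxa5 and Hoxa6, between Hoxb8 and Hoxb9, and between Hoxc5 and Hoxc6, and Hoxb7 and Hoxb8 were near 0. The place in Hoxb is not a stable one: without apCAFs 3 all 8 tested Hoxb genes lay above 0, and with values divided by library totals, quantile normalization, median centring or without nonapCAFs 6 the sign turned between Hoxb6 and Hoxb7. Paralogs with the same number did not all point the same way: in group 4, Hoxa4, Hoxb4 and Hoxc4 lay above 0 and Hoxd4 below, and in group 3, Hoxa3 and Hoxb3 lay above 0 and Hoxd3 below. Hoxd3 and Hoxd4 share much of their exon length, so groups 3 and 4 are not independent of each other. In group 6, Hoxb6 lay above 0 and Hoxa6 and Hoxc6 below. All 4 genes of group 9 lay below 0. The signs of the 11 low-numbered genes of Hoxa, Hoxb and Hoxc and of the 6 Hoxd genes were the same with values divided by library totals, with quantile normalization and with median centring, and without each library in turn. Those 3 scalings moved the median of all tested genes to -0.18, -0.19 and -0.24, and the median of the 11 low-numbered genes to 0.80, 0.53 and 0.74. The 11 were grouped by sign in these same data, so their unchanged signs do not support the grouping.

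apCAFs 3 carried the largest Hox differences. Among the 14 tested genes with a difference above 0, it was the highest of the 6 libraries in 12, at a median of 1.81 times the mean of apCAFs 1 and 2. Among the 16 below 0, it was the lowest in 14, at a median of 0.396 times that mean. The signs were fitted with apCAFs 3 included, so these counts follow in part from the split. The matching share over all tested genes was not computed. Over the 24 Hox genes with a mean of at least 100, the SD of the log2 ratio was 0.260 between apCAFs 1 and 2, and 1.71 and 1.69 between apCAFs 3 and each of them. Over all genes of that level the same pairs gave 0.238, 0.708 and 0.687. The 24 include Hoxb9, at 171, 167 and 1 in apCAFs, which widens the Hox SDs that involve apCAFs 3. Those SDs without Hoxb9 were not computed. For nonapCAFs 6, the SD to nonapCAFs 4 and 5 was 0.485 and 0.40 over the Hox genes and 0.495 and 0.479 over all. apCAFs 3 is also the apCAFs library with alveolar type II markers at nonapCAFs levels (sum 9609) and Nkx2-1 and Cldn18 at 0. In the list that holds Cldn18, Aqp5 alone was highest in apCAFs 3 of the apCAFs, at 1167, 1072 and 3063 against 55, 74 and 75. Ager read 1744, 1749 and 470 against 204, 194 and 325. The mesothelial sum of apCAFs 3, 51808, was the highest, with Wt1 at 5484, 5441 and 14937 in apCAFs. Lrrn4, Bnc1, Gpm6a and Krt19 were also highest in apCAFs 3, while Msln, Upk3b and Muc16 were lowest there among apCAFs. The part of these markers in the Hox values of apCAFs 3 was not tested. Without apCAFs 3, the median difference of the 11 low-numbered genes of Hoxa, Hoxb and Hoxc was 0.59 and that of the 6 Hoxd genes -0.51, with unchanged signs in all 17.

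**Figure D3:**
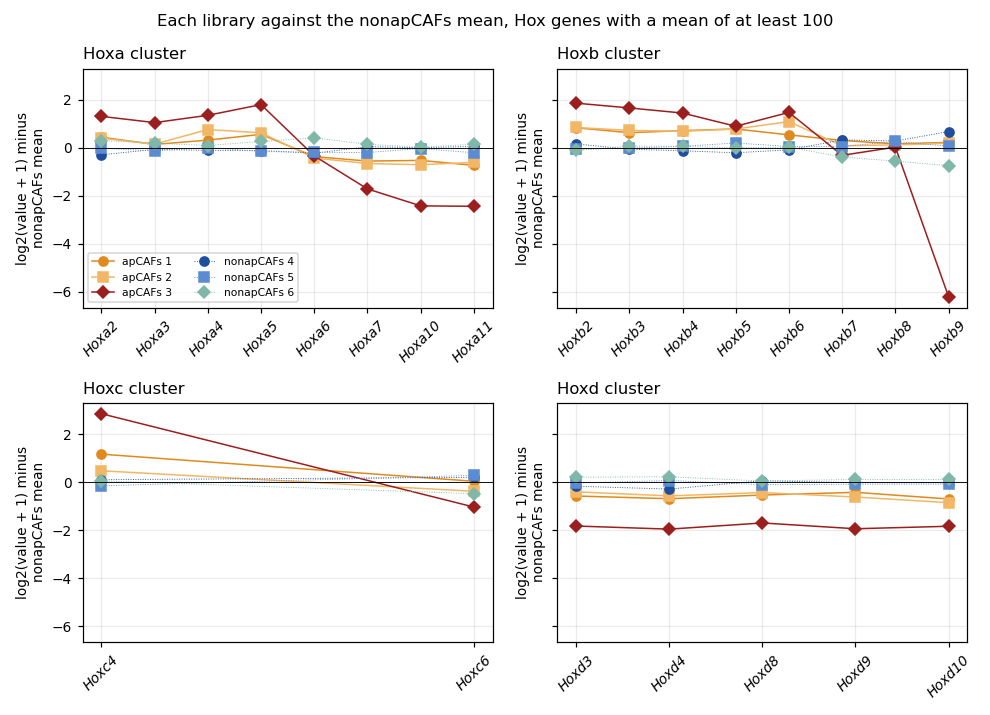
The y axis is each library's log2(value + 1) minus the mean of the 3 nonapCAFs libraries, for 23 of the 24 Hox genes with a mean of at least 100, in cluster order on the x axis; solid lines are apCAFs and dotted lines nonapCAFs. apCAFs 1 and 2 run together, above 0 at the low-number end of Hoxa, Hoxb and Hoxc and below 0 across Hoxd. apCAFs 3 runs the same way and farther out for most genes, but not at Hoxa6, Hoxb7, Hoxb8 or Hoxb9. At Hoxb7 and Hoxb9 it lies below 0 where apCAFs 1 and 2 lie above, with a value of 1 for Hoxb9.

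Ratios between genes within a library do not depend on the factor by which the library was scaled. Hoxa5 to Hoxa7 was 1.5, 1.68 and 7.91 in apCAFs and 0.620, 0.713 and 0.749 in nonapCAFs. Hoxa4 to Hoxa10 was 1.45, 2.23 and 11.2 in apCAFs and 0.745, 0.827 and 0.848 in nonapCAFs. In both, the low-numbered gene had more normalized counts in every apCAFs library and fewer in every nonapCAFs library. Between clusters, Hoxb4 to Hoxd4 was 1.42, 1.28 and 5.69 in apCAFs and 0.600, 0.535 and 0.478 in nonapCAFs, and Hoxb3 to Hoxd3 was 2.98, 2.82 and 14.5 against 1.39, 1.30 and 1.17. Hoxc4 to Hoxc6 was 1.64, 1.35 and 11.2 in apCAFs and 0.696, 0.551 and 1.08 in nonapCAFs. Hoxb4 to Hoxb8 was the exception among those computed, at 4.93, 4.98 and 9.0 in apCAFs and 2.53, 2.91 and 5.15 in nonapCAFs, so nonapCAFs 6 lay among apCAFs. These ratios are of normalized counts, not per length, and serve to compare libraries and not genes. The pairs were picked with earlier results of these data known. In Hoxa5 to Hoxa7, Hoxa4 to Hoxa10, Hoxb4 to Hoxd4 and Hoxb3 to Hoxd3, apCAFs were all above for the first gene and all below for the second. The separation of those ratios was thus fixed in advance and adds no support.

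Levels of different genes were compared per kilobase (kb) of GENCODE M21 exon length. In nonapCAFs the highest were Hoxd9 at 1450 ± 103 normalized counts per kb (SD, n = 3) and Hoxd8 at 1434 ± 89.1, which did not differ beyond their spread. Hoxa5 (761 ± 126) and Hoxa7 (715 ± 85.9) followed, also within their spread of each other, and then Hoxd4 (513 ± 89.9) and Hoxd10 (495 ± 34.6). In apCAFs Hoxa5 had the highest mean level per kb, 1636 ± 861, and Hoxd8 (829 ± 339), Hoxd9 (799 ± 372), Hoxb4 (622 ± 199) and Hoxb3 (559 ± 238) came next, with spreads that overlap because of apCAFs 3. The leading gene per kb was thus a Hoxd gene in one group and Hoxa5 in the other.

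The total Hox level was alike while its makeup was not. Summed over the 39 genes, the level was 7542, 7574 and 8957 per kb in apCAFs and 7836, 7602 and 8646 in nonapCAFs, with overlapping groups. Hoxd made up 37.6%, 36.7% and 12.8% of it in apCAFs and 51.3%, 51.5% and 51.2% in nonapCAFs. Hoxb made up 25.3%, 25.9% and 33.6% against 16.7%, 17.1% and 13.6%, and Hoxa 34%, 35.1% and 48.1% against 29.8%, 29.1% and 33.1%. Every apCAFs library was below every nonapCAFs library in the Hoxd share and above it in the Hoxa and Hoxb shares. The summed Hoxa level itself overlapped between groups, at 2568, 2657 and 4309 per kb in apCAFs and 2337, 2215 and 2864 in nonapCAFs, while the Hoxb and Hoxd sums did not. Hoxc made up 2.06% to 5.50% of the level in the 6 libraries. By class, genes numbered 9 to 13 made up 21.6%, 19.0% and 6.31% in apCAFs and 28.1% to 28.9% in nonapCAFs, and genes numbered 1 to 3 made up 17.4%, 18.1% and 26.6% against 12.4% to 12.9%. No p is given for these sums, since the genes were chosen with earlier results known.

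**Figure D4:**
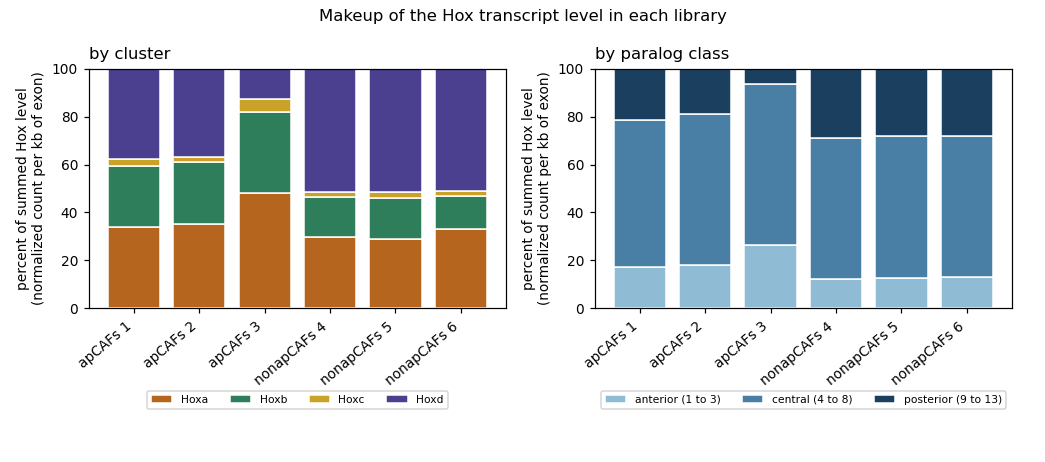
Bars show the percent of the summed Hox level per kb of exon in each library, split by cluster on the left and by paralog class on the right; there are no error bars because each bar is 1 library. The 3 nonapCAFs bars are nearly the same, with Hoxd just over 51%, and in apCAFs the Hoxd part is smaller, down to 12.8% in apCAFs 3.

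Promoters were looked at because neighbouring genes differed in the same direction. RefSeq (GRCm38.p6) promoters, 250 bases before to 50 after a start, were found for 22 of the 39 genes, with 24 promoters. Those of Hoxa5 and Hoxb4, with higher values in apCAFs, and Hoxa7 and Hoxd10, with lower ones, are shown 5′ to 3′ on the gene's strand. Capitals mark AGGTCA, the half-site of nuclear receptors such as RAR, or TTTATG, the core bound by Cdx factors, on either strand.
Hoxa5, chr6:52204538-52204837, minus strand: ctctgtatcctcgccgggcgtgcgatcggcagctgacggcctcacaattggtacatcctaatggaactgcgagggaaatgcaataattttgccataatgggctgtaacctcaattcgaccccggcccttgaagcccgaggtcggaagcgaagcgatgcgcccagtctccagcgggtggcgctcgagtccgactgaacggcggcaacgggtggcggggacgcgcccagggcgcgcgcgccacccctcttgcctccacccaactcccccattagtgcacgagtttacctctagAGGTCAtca
Hoxb4, chr11:96318017-96318316, plus strand: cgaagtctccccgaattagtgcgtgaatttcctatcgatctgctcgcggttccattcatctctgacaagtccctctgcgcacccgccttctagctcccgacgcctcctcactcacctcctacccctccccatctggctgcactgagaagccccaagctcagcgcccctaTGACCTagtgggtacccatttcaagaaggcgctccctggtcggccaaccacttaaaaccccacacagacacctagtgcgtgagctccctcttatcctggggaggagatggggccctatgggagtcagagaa
Hoxa7, chr6:52218524-52218823, minus strand: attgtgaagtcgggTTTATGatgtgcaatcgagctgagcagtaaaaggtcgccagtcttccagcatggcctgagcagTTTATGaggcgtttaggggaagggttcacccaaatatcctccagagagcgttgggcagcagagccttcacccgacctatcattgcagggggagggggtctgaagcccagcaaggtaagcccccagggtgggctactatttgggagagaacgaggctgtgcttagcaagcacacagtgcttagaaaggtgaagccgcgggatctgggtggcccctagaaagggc
Hoxd10, chr2:74691641-74691940, plus strand: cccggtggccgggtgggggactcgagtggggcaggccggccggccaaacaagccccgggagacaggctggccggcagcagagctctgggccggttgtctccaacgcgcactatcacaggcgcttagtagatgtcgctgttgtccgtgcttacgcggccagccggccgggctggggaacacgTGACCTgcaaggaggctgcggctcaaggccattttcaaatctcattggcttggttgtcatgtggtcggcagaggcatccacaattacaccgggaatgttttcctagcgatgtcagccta
AGGTCA was found in 7 of the 24 Hox promoters and in 16.3% of the 32851 promoters of the table. The 7 are Hoxa5, Hoxb4 and Hoxc4, with fitted differences above 0, and Hoxd3, Hoxd4, Hoxd8 and Hoxd10, with differences below 0. TTTATG was found in 5 Hox promoters (Hoxa7, Hoxb8, Hoxd3, Hoxd4 and Hoxd11) and in 11.9% of all. The homeodomain core TAATTA was in 2, both of Hoxd11, and in 5.29% of all, and the Pbx-Hox motif TGATTNAT, which can overlap TTTATG, was in 2 (Hoxa2 and Hoxd11) and in 3.22% of all. The DR5 retinoic acid response element, a pair of half-sites, was in none of the 24 and in 0.0974% of all. Median GC content was 57.7% in Hox promoters and 52.7% in all, and the median ratio of observed to expected CpG was 0.626 against 0.384. A match says only that the letters are there.

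The TALE partners, through which Hox proteins gain binding specificity, had differences above 0 for 6 of 9 genes. Of the 9, limma called 2 higher and none lower, against 9.35% and 0.889% of all tested genes. The median of the 9 was log2 0.83, against -0.03 over all tested genes. Pknox2, a gene of the Prep group and one of the called genes, read 1058, 985 and 1985 against 400, 443 and 484 (log2 1.53, SE 0.30, limma adjusted p = 0.0352). Every apCAFs library was above every nonapCAFs library, with apCAFs 3 apart. Pbx2, Pbx3 and Pknox1 did not pass and had differences between -0.23 and -0.01. At an unadjusted p under 0.05, limma had 5 higher and none lower, as the authors' deposited table did at its adjusted threshold. Over all genes, the shares higher and lower were 19.7% and 11% at that limma p, and 20.6% and 9.77% in the authors' deposited table. Without apCAFs 3 limma called 4 higher, without apCAFs 1, apCAFs 2 or nonapCAFs 6 it called 1, and without nonapCAFs 4 or nonapCAFs 5 it called none.

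Among 13 tested genes of the Cdx and retinoid axis, limma called 4 higher and none lower, against 9.35% and 0.889% of all tested genes. The median of the 13 was log2 0.59. Aldh1a2, the enzyme that makes retinoic acid in mesoderm and also a gene of mesothelial cells, read 14250, 13747 and 32515 against 2483, 2333 and 1902 (log2 3.06, SE 0.37, limma adjusted p = 0.0114). Rarb, a retinoic acid receptor that is itself a retinoid target, read 508, 615 and 925 against 163, 223 and 164 (log2 1.86, SE 0.27, limma adjusted p = 0.0167), and 38.4% of its exon length has antisense partners. Cyp26b1, which breaks retinoic acid down, read 1227, 1077 and 1064 against 670, 622 and 746 (log2 0.72, SE 0.12, limma adjusted p = 0.0251). Crabp2, which carries retinoic acid to its receptor, read 412, 401 and 313 against 169, 150 and 85 (log2 1.52, SE 0.29, limma adjusted p = 0.0351). The 4 called genes thus include a synthesising and a degrading enzyme, and for each of them the groups did not overlap. The mesothelial markers given above moved with these genes, and their part was not tested. Of the Cdx genes, Cdx1 and Cdx4 never exceeded 2, and Cdx2 read 28, 22 and 0 against 38, 43 and 50 without passing. Without single libraries the list had 1 to 4 genes called higher: 4 without nonapCAFs 6, 3 without apCAFs 3, 2 without apCAFs 1, and 1 without apCAFs 2, nonapCAFs 4 or nonapCAFs 5. Over these fits the limma adjusted p reached 0.0506 for Aldh1a2, 0.0704 for Rarb, 0.105 for Cyp26b1 and 0.0978 for Crabp2. None was called lower, and none had an unadjusted p under 0.05 on the lower side or was called lower in the authors' deposited table.

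Of 35 chromatin regulators limma called 1, against 10.2% of all tested genes. None of 23 Polycomb genes passed limma in either direction (median log2 -0.15), and 11 of the 23 did not overlap between groups, 2 with apCAFs above and 9 below, against 45.7% of all tested genes (24.1% above and 21.6% below). At an unadjusted p under 0.05, 3 of the 23 lay lower and none higher, and the authors' deposited table called 3 lower and none higher. The most abundant were Cbx6, at 33537, 33855 and 33376 against 33449, 32098 and 31585, and Phc2, at 21962, 21419 and 13155 against 23304, 22946 and 17417. Of 12 Trithorax and H3K27 demethylase genes, 1 was called lower and none higher (median log2 -0.29). That was Kmt2d, a histone H3K4 methyltransferase, at 8547, 9253 and 9575 against 12362, 14308 and 12603 (log2 -0.52, SE 0.11, limma adjusted p = 0.0467). Its call held without apCAFs 3 (limma adjusted p = 0.0442) and was lost without apCAFs 1, apCAFs 2 and each nonapCAFs library (0.101 to 0.163). At an unadjusted p under 0.05, 4 of the 12 lay lower and 1 higher, against 11% and 19.7% of all tested genes. The authors' deposited table also called 4 of the 12 lower and 1 higher, against 9.77% and 20.6%. The groups did not overlap for 7 of the 12, 1 with apCAFs above and 6 below.

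**Figure D5:**
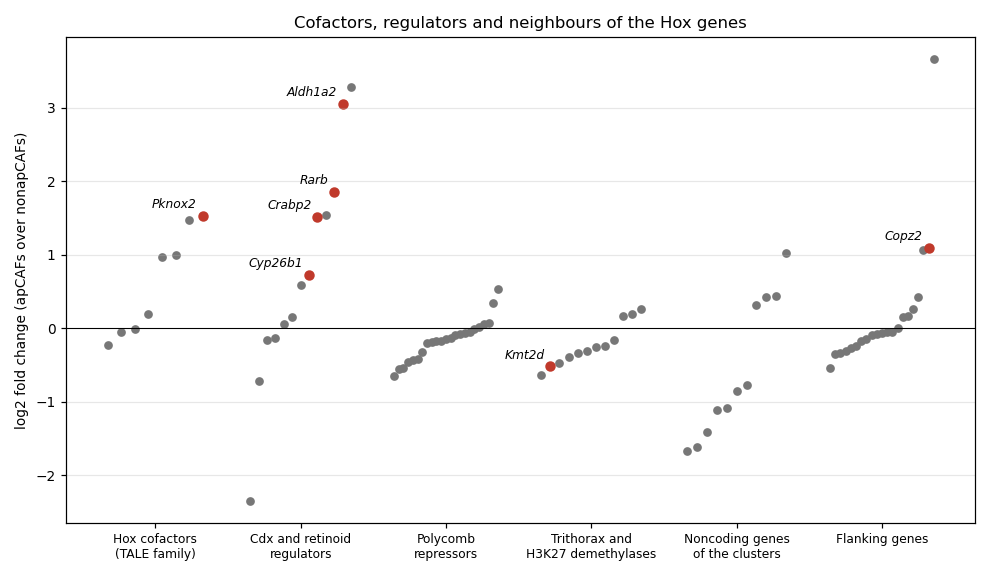
Each point is a tested gene (88 of 89 drawn), placed by its list on the x axis and by its fitted log2 difference (apCAFs over nonapCAFs) on the y axis; red points with names were called by limma. The cofactor and retinoid lists reach farther above 0 than the Polycomb and Trithorax lists, in which 1 of 35 genes, Kmt2d, was called.

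Of the noncoding genes inside the clusters, none of 11 tested passed limma (4 above 0, 7 below 0, median log2 -0.85). At an unadjusted p under 0.05, 1 lay higher and 4 lower, the authors' deposited table called 1 higher and 3 lower, and without apCAFs 3 limma called 1 in each direction. Over all genes, the shares higher and lower were 19.7% and 11% at that limma p, and 20.6% and 9.77% in the authors' deposited table. Hotairm1, at the low-number end of the Hoxa cluster, read 253, 291 and 633 against 236, 223 and 356. Hoxaas3, over Hoxa7, read 436, 435 and 299 against 679, 559 and 746, and Hoxa11os read 162, 150 and 41 against 251, 306 and 253. Gm28230, which shares 95.8% of its exon length with Hoxd3 and Hoxd4, read 919, 1177 and 422 against 1410, 1684 and 1848 (log2 -1.09, SE 0.40, limma adjusted p = 0.143). Hotair, an RNA of the Hoxc cluster, and the miRNA genes Mir196b, Mir196a-2 and Mir10b were listed at 0 in all libraries.

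Genes just outside the clusters had a median difference near 0. Of 21 tested flanking genes, limma called 1 higher and none lower, against 9.35% and 0.889% of all tested genes. The median difference of the 21 was log2 -0.07. At an unadjusted limma p under 0.05, 4 lay higher and 2 lower, against 19.7% and 11% of all tested genes. The authors' deposited table had 4 higher and 1 lower, against 20.6% and 9.77%. The called gene was Copz2, a coatomer subunit on the side of the Hoxb cluster, at 3254, 3857 and 5965 against 2069, 1899 and 1952 (log2 1.10, SE 0.24, limma adjusted p = 0.0483). Its call held without apCAFs 3 and was lost without each of the other libraries (limma adjusted p 0.0557 to 0.155). Evx1, the homeobox gene next to Hoxa13, was listed at 0 in all libraries, and Evx2, next to Hoxd13, never exceeded 5. Among 5 tested ParaHox and other Antennapedia-class homeobox genes outside the clusters, Meox2, a gene of mesoderm and muscle, was called higher at 623, 545 and 836 against 186, 225 and 324 (log2 1.46, SE 0.27, limma adjusted p = 0.0309), a call kept without nonapCAFs 6 and lost without each other library (0.0528 to 0.113). Of 5 genes listed as lung mesenchyme factors, 3 were called higher, against 9.35% of all tested genes. The 5 include Nkx2-1, which read 806, 453 and 0 against 11, 5 and 0. It followed the alveolar type II markers, so the list is not purely mesenchymal. Foxf1 read 4460, 4113 and 3444 against 1998, 1782 and 1670 (log2 1.14), Tbx4 read 2868, 3591 and 4869 against 917, 976 and 1512 (log2 1.74), and Tbx5 read 1131, 1191 and 2641 against 269, 253 and 410 (log2 2.33). Without single libraries 0 to 4 were called: 4 without apCAFs 3 or nonapCAFs 6, 2 without apCAFs 1, 1 without apCAFs 2 or nonapCAFs 4, and 0 without nonapCAFs 5.

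The authors' deposited table, made with DESeq2, gave an adjusted p for 26 of the 39 genes and called 12 of them at 0.05, against 30.3% of its 19255 genes with an adjusted p (20.6% higher and 9.77% lower). The authors' deposited table had 8 of them higher, Hoxa4, Hoxa5, Hoxb2, Hoxb3, Hoxb4, Hoxb5, Hoxb6 and Hoxc4, and 4 lower, Hoxa7, Hoxd4, Hoxd8 and Hoxd10. Its log2 values ran from 0.81 for Hoxb5 to 1.85 for Hoxc4 among the higher genes and from -1.06 for Hoxd10 to -0.79 for Hoxd8 among the lower ones, in the authors' deposited table. Hoxa9 and Hoxc9, called by limma, had no adjusted p in the authors' deposited table.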

How the data were processed

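RNA of the sorted cells was made into libraries with an NEB Next Ultra kit, per the labels. Trim Galore, Bowtie2, DESeq2 and build mm10 are named in the submitters' processing notes, without versions or roles. How reads were counted, with which gene models and on which strand, is not given in the sources used here. Per the file headers, the score the authors deposited per gene and library is a count that they normalized, given in whole numbers, and since it is not a raw count no count model was fitted. The authors' deposited table adds a DESeq2 p-value and adjusted p-value per gene, a fold change as a ratio, and its log2, per the file headers.

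The test was limma (3.58.1, under R 4.3.3) with a single term, the group, on log2(value + 1), without trend or robust options, on genes with a mean of at least 10; p-values were two-sided and Benjamini-Hochberg adjusted over all 24071 tested genes. Nothing in the labels says which libraries come from separate sorts, so p-values measure the spread between these libraries only. Values in every library are given for each Hox gene with a mean of at least 100, each called one, and each of mean at least 10 whose groups do not overlap, and for called genes of other lists, up to 4 by smallest p, or the 2 most abundant where none passed. Markers of fibroblasts and of other cell types are mostly given by counts and sums instead. Genes named outside this rule (Hoxa13, Hoxb1, Hoxb13, Hoxc5, Hoxc8, Hoxd11, Hoxd12, Hotairm1, Hoxaas3, Hoxa11os, Hotair, Mir196b, Mir196a-2, Mir10b, Cdx1, Cdx2, Cdx4, Evx1, Evx2, Pbx2, Pbx3, Pknox1, Nkx2-1, Cldn18, Ager, Muc16, Lum, Msln, Upk3b, Bnc1 and Wt1) were chosen after their values were seen. Some genes and sequences are not reported here. The Hox genes, the 15 gene lists and the tests were chosen with earlier results of these data known. Exon lengths and overlaps come from GENCODE M21, in which 55117 of 55298 identifiers were found. On simulated data with 200 changed genes, drawn 3 times over 24050 to 24071 tested genes, the share called was 30% to 52% for 2-fold changes and 68% to 82% for 4-fold ones. It was 86% to 92% for 8-fold and 94% to 98% for 16-fold changes, and 7 to 12 of the 156 to 165 calls were false. Noise was drawn independently for each gene and library, and only genes with a mean of at least 100 were changed. The close pairs and the deviation of apCAFs 3 were not simulated, and Hoxa9 and Hoxc9 lie under that mean. These shares therefore do not carry over to the Hox calls.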

Additional observations from a re-analysis of the deposited data

How the results depend on the processing

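Depth is unknown, 3 libraries a group limit every call, and the tumours behind a library are not told apart. No paired analysis was possible because the labels give the groups no shared replicate numbers; a term for the experiment was fitted under all 6 pairings of apCAFs 1, 2 and 3 with nonapCAFs libraries instead.

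Hox genes called higher by limma numbered 1, and 2 with a pseudocount of 10, 0 without the filter on low values, 4 with a mean of at least 100, 0 with quantile normalization, 5 with a variance trend, 0 with the close pairs (apCAFs 1 and 2, nonapCAFs 4 and 5) averaged, 6 with a term for apCAFs 3 and nonapCAFs 6, 0 with the experiment term under every pairing, 8 in the authors' deposited table, and 0 to 4 without each library in turn. Hox genes called lower numbered 2, and 1, 0 and 0 without the filter, with a mean of at least 100 and with close pairs averaged, 2, 1, 2, 0, 0 and 0 with nonapCAFs 4, 5, 6, then 4, 6, 5, then 5, 4, 6, then 5, 6, 4, then 6, 4, 5, then 6, 5, 4 as partners, 4 in the authors' deposited table, and 0 to 5 without each library in turn. The cause was not tested, except that averaging leaves fewer samples and the stricter filter tests fewer genes. That filter leaves out Hoxa9 and Hoxc9, whose means were 17.8 and 22.2, so their lower calls could not be made there. With close pairs averaged, an unadjusted limma p under 0.05 was reached by 4 of the 30 tested Hox genes with higher and 3 with lower values. Over all 24071 tested genes it was reached by 4116.

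All genes called numbered 2251 higher and 214 lower, or 91.3% higher. That share was 63.9% with quantile normalization and 54.5% with median centring. The counts were 1425 higher without the filter, 430 lower with a mean of at least 100, 407 lower with values divided by totals, 1092 lower with quantile normalization, 1780 lower with median centring and 651 lower with a variance trend. They were 0 and 0 with close pairs averaged (4116 genes at an unadjusted p under 0.05), 3502 and 761 with a term for apCAFs 3 and nonapCAFs 6, and 3960 and 1882 in the authors' deposited table. With the experiment term, in the order of pairings above, 107, 13, 119, 1, 13 and 3 were lower, and higher genes numbered 620 (4, 6, 5), 86 (5, 6, 4), 722 (6, 4, 5) and 204 (6, 5, 4). Without each library in turn, 631 to 2384 were higher and 17 to 585 lower.

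Hoxb5 kept its call in 8 of 22 alternatives (limma and DESeq2 adjusted p 6.82e-05 to 0.168), Hoxa9 in 15 of 20 and Hoxc9 in 9 of 20. Over 26 Hox genes and 568 alternative values, 493 stayed on the same side of the threshold with the same sign, 30 lost a call, 34 gained one and 11 changed sign, in 3 genes. With totals, quantile normalization and median centring, Hoxb7 turned from 0.03 to -0.12, -0.33 and -0.18, and Hoxb8 from 0.11 to -0.046, -0.23 and -0.11. Hoxb7 lay between -0.16 and 0.20 and Hoxb8 between -0.17 and 0.25 without each library in turn, and Hoxb9 between -3.0 and 0.21. Cbx6 turned to -0.10, -0.088 and -0.16 under the same scalings, and Phc2 to 0.044 without apCAFs 3. The cause was not tested.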
